A study of Mus musculus with 6 samples.

Results

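Imatinib at 100 nM for 4 h was compared with no treatment in Ba/F3 cells that carried FIP1L1-PDGFRA. The comparison was taken by its labels and holds 1 array a side, 2 of the 6 arrays of the series. Ba/F3 is a mouse cell line labelled as pro-B and normally kept alive by interleukin 3 (IL3). The studied line carried the fusion in pMSCV, a retroviral vector, and had been selected to grow without IL3. Beside it stood a line with ETV6-PDGFRB in the same vector, selected the same way, and cells with the empty vector that received IL3, each with 1 untreated array and 1 array after the same treatment. The medium of all cells held 10% serum, and labelling used 5 µg of RNA. The labels do not say whether a line was a clone or a pool, and they name no vehicle for the untreated cells. The vector cells differ from the studied line both in lacking a fusion and in receiving IL3.

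FIP1L1-PDGFRA is a fusion of the RNA processing factor FIP1L1 with the kinase part of the receptor PDGFRA, and it drives a chronic eosinophilic leukaemia. The kinase is active without ligand and signals through STAT transcription factors, the RAS and ERK cascade, and PI3K with AKT. Imatinib occupies the ATP pocket of ABL, KIT and the PDGF receptors. IL3 signals through JAK2 and STAT5, with no need for these kinases; cells grown in IL3 are the control for effects of the drug outside the fusion.

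Signals are MAS5 intensities on a linear scale. A floor of 20.1, the 50th percentile of the median array, replaced all lower signals before the log2 ratio of imatinib over untreated was taken. Of 12393 genes, 6743 exceeded the floor on at least 1 of the 2 arrays and are called measured here. Of these, 148 were at least 2-fold higher after imatinib, 2.19% of measured genes, and 200 were at least 2-fold lower, 2.97%, so that 5.16% differed in either direction. Counts of list members past 2-fold, given below, are to be read against these shares. Past 4-fold, 31 genes were lower and 6 higher, and all 7 genes past 8-fold were lower. With 1 array a side there is no replicate check and no test, so every fold below describes a pair of arrays. The folds are relative to the arrays' common scaling. Scaling to the spiked hybridization controls, whose mean log2 signal was 7.88 untreated and 8.15 with imatinib, moved the median log2 ratio of all genes by -0.27 and gave 58 higher and 392 lower genes. The share of higher genes among those past 2-fold was then 12.9%, against 42.5% with the deposited scaling. Where a signal is below the floor, the fold is given as at least its size. In RNA from a whole culture, fewer cells of a kind and less RNA per cell cannot be told apart.

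**Figure D1:**
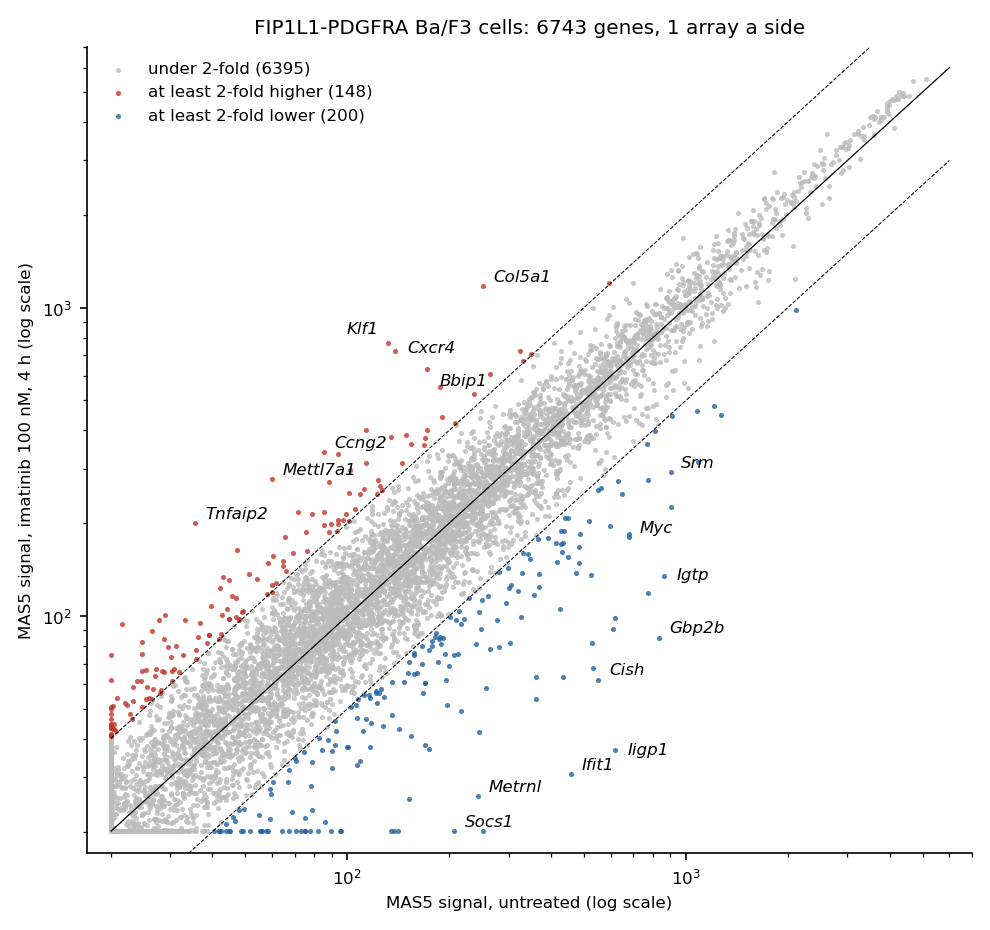
MAS5 signal of each of the 6743 measured genes without (x axis) and with imatinib (y axis), both on log scales, 1 point per gene, with signals under the floor of 20.1 drawn at the floor. The solid line marks equal signals and the dashed lines 2-fold; the 200 lower genes reach farther from the line than the 148 higher genes, led by Iigp1 and Ifit1.

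The interferon-inducible GTPases had the lowest median of the 51 gene lists used here. These proteins of the IRG and GBP families attack the vacuoles of intracellular parasites and are induced by interferons. All 12 measured members were at least 2-fold lower, and the list's median log2 ratio was -2.66, against 0.05 over all measured genes. Of the 13 members on the array, 1 was below the floor on both arrays. All 12 exceeded the floor untreated and 9 with imatinib. The rest counted as measured through the untreated array alone and could only come out lower. Iigp1 gave 617 untreated and 36.7 with imatinib, 16.8-fold lower. Of the guanylate-binding protein genes, Gbp2b had signals of 832 and 85.2 (9.77-fold lower), and Gbp2 had 618 and 98.8 (6.25-fold lower). Among the regulators of the IRG family, Irgm1 stood at 607 and 90.9, and Irgm2 at 360.1 and 53.8. Ifi47 and Igtp, further IRG members, had untreated signals of 771 and 861 and treated ones of 119 and 135. All these treated signals were still above the floor. Probe sets of close paralogs in these families can take up each other's RNA, and how far they did was not tested.

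The antiviral genes, a separate list of interferon-stimulated genes, held 23 genes of 38 measured that were at least 2-fold lower and 0 that were higher, with a median log2 ratio of -1.14. Ifit1, whose product binds viral RNA caps, had a signal of 457 untreated and 30.7 with imatinib, 14.9-fold lower. Its relatives Ifit3 and Ifit2 were at least 6.72-fold and 4.40-fold lower, from 135 and 216. Rsad2, which encodes viperin, was at least 12.6-fold lower, with a signal of 252 untreated and below the floor with imatinib. Its log2 ratio was -3.65, and its 2 other probe sets gave smaller ones of -2.30 and -2.07. Rtp4 and Usp18, the latter a brake on interferon receptor signalling, stood at 532 and 433 before and 67.9 and 63.4 after. The chemokine Cxcl10 was at least 7.02-fold lower, and Samhd1, a nucleotide hydrolase that restricts viruses, was 2.24-fold lower at 260.2 and 116; its other probe sets gave log2 ratios from -0.69 to 0.41. The range of the list ran from -3.90 to 0.13, so the lower genes stand beside members that hardly differed.

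Promoter sequences of 4 of these strongly lowered genes are given because they hold the letters that STAT and IRF factors are known to bind. Windows are from RefSeq's annotation of GRCm38.p6, all read in the direction of the gene, and the capitals mark matches to 2 patterns searched on both strands: TTCNNNGAA, the palindrome that STAT dimers bind, and GAAANNGAA (or its reverse complement), the core of the interferon-stimulated response element bound by STAT2 with IRF9 and by IRF1. Irgm2 and Igtp are neighbours whose windows hold both patterns side by side, and Ifit1 and Rsad2 carry the interferon pattern farther upstream.
Irgm2, chr11:58214857-58214976, plus strand: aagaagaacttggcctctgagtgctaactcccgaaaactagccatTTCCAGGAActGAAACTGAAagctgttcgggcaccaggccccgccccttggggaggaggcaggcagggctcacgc
Igtp, chr11:58199436-58199555, plus strand: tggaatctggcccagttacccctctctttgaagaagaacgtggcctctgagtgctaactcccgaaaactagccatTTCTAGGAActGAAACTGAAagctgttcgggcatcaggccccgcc
Ifit1, chr19:34640740-34640859, plus strand: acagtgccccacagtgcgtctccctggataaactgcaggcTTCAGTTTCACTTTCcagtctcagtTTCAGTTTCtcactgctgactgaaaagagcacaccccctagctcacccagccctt
Rsad2, chr12:26456492-26456611, minus strand: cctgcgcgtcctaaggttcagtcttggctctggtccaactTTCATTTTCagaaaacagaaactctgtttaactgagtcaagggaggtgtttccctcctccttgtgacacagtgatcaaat
In Irgm2 the STAT pattern ends 67 bases before the start and the interferon pattern begins at base 64 before it. In Igtp the same pair lies at 45 to 37 and 34 to 26 bases before the start. Aligned on the motifs, 87 of 90 bases of these 2 windows were identical (96.7%). Ifit1 has 3 matches, of which 2 overlap by some bases, and Rsad2 has 1 in the stretch shown.

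The interferon pattern was found before the start of 7 genes among the 8 GTPase genes, of 12 measured, with a window in the RefSeq table, 87.5%. It was found in 13 antiviral genes of 31 with a window, 41.9%. Over all measured genes the share was 7.43% of 5597 with a window. Of all 27025 genes in the table of windows, 8.18% held the pattern, and of its 32851 windows, 7.13%. Among genes at least 2-fold lower, 17.8% of 157 held it, against 8.33% of 120 among the higher genes. Outside the interferon lists the share in lower genes was 10.5% of 133. The STAT pattern was in 17.2% of lower genes, 20 of 133 genes of those outside the interferon lists, 9 of 120 higher genes and 7.16% of all measured genes. In the whole table, 8.13% of genes and 7.02% of windows held it. Named lower genes with a STAT match outside the printed windows were Ifit2, Socs3, Irf1, Samhd1, Polr1b, Eef1e1, Rpf2 and Rab15; Socs1, Gbp2b, Gbp2, Gbp3, Irgm1, Ifit3, Cxcl10 and Stat2 were among those with an interferon match. The window of Cish held neither pattern. Id1, Myc, Iigp1, Usp18 and Rtp4 had no window and were not searched. Shares of an E-box (CACGTG), a FOXO site (GTAAACA) and E2F sites (TTTCCCGC or TTTGGCGC) lay close to those of all measured genes: the E-box was in 9.55% of lower, 11.7% of higher and 10.8% of all measured genes, and the E2F sites in 2.55%, 3.33% and 3.52%. The FOXO site was in 3.82% of lower and 4.17% of higher genes, against 2.68% of all measured genes. A match is a description of the letters, and no binding was measured here.

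**Figure D2:**
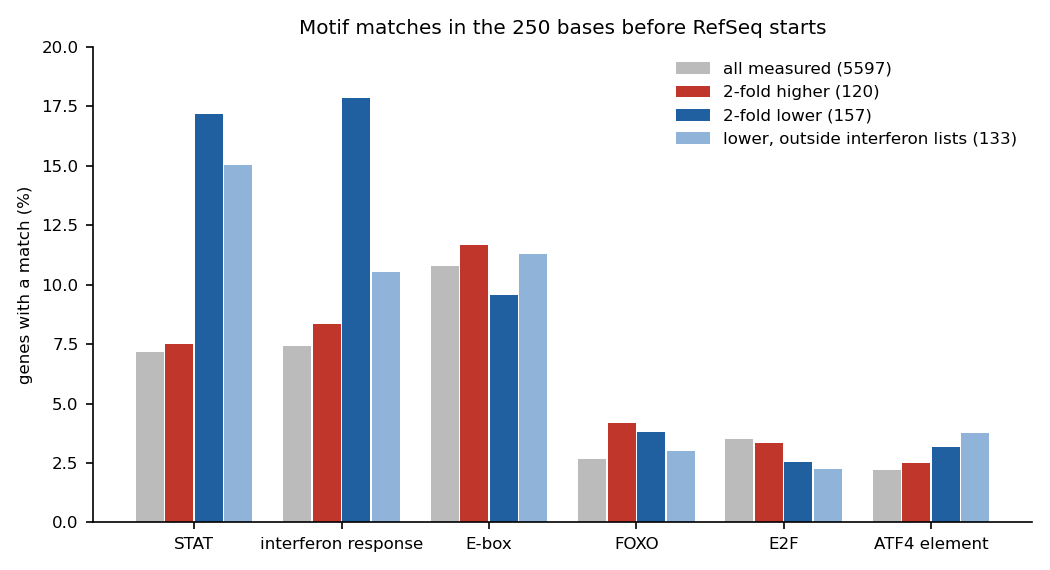
Share of genes (y axis, percent, from 0) with at least 1 match to each motif (x axis) in the 250 bases before a RefSeq start, for all measured genes (grey), genes at least 2-fold higher (red), genes at least 2-fold lower (dark blue) and lower genes outside the interferon lists (light blue), with the number of genes with a window in brackets. The lower genes stand at 17.2% for the STAT pattern and 17.8% for the interferon pattern, and the higher genes at 9 of 120 genes and 8.33%.

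Some regulators of the interferon response were lower too. Stat2, a transcription factor of the type I interferon response, had signals of 117 and 37.6 (3.11-fold lower), and its partner Irf9 had 158 and 75.6 (2.09-fold lower). Irf1 was 2.25-fold lower at 175 and 77.7. Irf7, the amplifier of type I interferon genes, was just short of 2-fold at 272 and 138. The list of STAT, IRF and JAK genes as a whole had a median log2 ratio of -0.11, with 3 members lower and 1 higher of 22. The higher one was Pias3, an inhibitor of STAT3, at below the floor and 62.2, at least 3.10-fold higher, although its other probe set had a log2 ratio of 0.01. Stat5a and Stat5b, whose proteins carry the IL3 signal, were 1.81-fold and 1.84-fold higher. Their other probe sets gave smaller log2 ratios of 0.44 and 0.34. Antigen presentation genes, which interferons also induce, had 1 member lower of 17. That member was Tapbpl, a peptide editor of class I molecules, at 114 and 46.2. Psmb10, a catalytic subunit of the immunoproteasome, had 827 and 418, while Psmb8 and Psmb9 of the same particle had log2 ratios of 0.10 and 0.15. B2m and H2-D1, the light and a heavy chain of class I molecules, had log2 ratios of 0.22 and 0.15, and Tap1 of -0.10. The list's median log2 ratio was -0.04 and turned positive in some of the alternative settings, so no direction is given for it.

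Feedback inhibitors and other known targets of STAT5 made up the next group, with 11 of 19 measured members lower, 0 higher and a median log2 ratio of -1.09. Cish, which blocks STAT5 docking at cytokine receptors, had 552 untreated and 62.2 with imatinib, 8.87-fold lower. Socs1, which blocks JAK2 and its relatives, was at least 10.3-fold lower, from an untreated signal of 207. Socs3, which inhibits signalling by gp130 receptors, was at least 3.73-fold lower from 74.9, and both were below the floor with imatinib. The other probe sets of Socs3 gave log2 ratios of -1.33 to -0.87. Id1 and Id2, inhibitors of helix-loop-helix factors, were 5.69-fold and 2.35-fold lower, with treated signals of 63.5 and 54.8. Pim1, a survival kinase, had signals of 280.4 and 79.1 (3.54-fold lower), and its other probe set gave a log2 ratio of -3.06. Ccnd2, a cyclin of G1 phase, had 765 and 361, and 6 further probe sets gave log2 ratios between -1.52 and -0.01. The antiapoptotic members of the list were under 2-fold: Mcl1 stood at 806 and 539 (1.49-fold lower), and Bcl2l1 at 76.0 and 66.0, where log2 ratios of other probe sets ranged from -1.17 to -0.45.

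Several secreted factors and receptors were lower, while most cytokine genes were not detected. Of 51 cytokine and chemokine genes on the array, 35 were below the floor on both arrays, among them Csf2, Il5, Il10 and Il13, and 5 of the 16 measured were at least 2-fold lower with 0 higher. Metrnl, which encodes the secreted protein meteorin-like, had a signal of 244 untreated and 26.1 with imatinib, 9.34-fold lower. Lif, a ligand of gp130 receptors, and Cxcl11, a ligand of CXCR3, were at least 4.73-fold and at least 4.47-fold lower and below the floor with imatinib. Il6 remained well above the floor at 447 and 209, 2.14-fold lower, and Vegfa went from 41.7 to below the floor. Among receptors, 5 of 23 measured were lower and 1 was higher. Il4ra, the IL4 receptor chain, had 174 and 37.0 (4.70-fold lower, log2 ratio of the other probe set -2.39), and F2rl2, a protease-activated receptor, 527 and 81.9 (6.43-fold lower). Il15ra, a chain of the IL15 receptor, went from 55.5 to below the floor. Tnfrsf12a, the receptor of TWEAK, stands outside that list and went from 137 to below the floor. The subunits of the IL3 receptor differed little: Il3ra stood at 38.3 and 44.4, Csf2rb at 1506 and 1579.7, and Csf2rb2 at 1738 and 1737. Csf2rb and Csf2rb2 are close paralogs whose probe sets may share RNA.

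Targets of the ERK cascade were lower in part. ERK feedback genes, which encode phosphatases and adaptors that restrain the cascade, had 6 of 17 measured members lower, 0 higher and a median log2 ratio of -0.76. Dusp6, the ERK phosphatase, had signals of 278 and 97.0, 2.87-fold lower. Spred1 and Spred2, which block RAF activation, stood at 487 and 126 before and 184 and 58.0 after. Phlda1 was 2.98-fold lower, and Nab2, a corepressor of EGR factors, at least 3.36-fold lower. Of the 11 members under 2-fold, Rasa2, Trib3, Dusp7 and Nab1, chosen after their values were seen, were 1.99-fold, 1.76-fold, at least 1.69-fold and 1.64-fold lower. Others were nearer to 0, among them Spry2 at 39.3 and 39.2 and Dusp1 at 64.3 and 65.0, and 3 had log2 ratios above 0. Of 26 measured immediate early genes 5 were lower and 1 was higher. Ier2 had 483 and 148 (3.26-fold lower) and Srf, the serum response factor, 167 and 69.7 (2.39-fold lower). Fos and Fosl1, subunits of AP-1, went from 51.6 and 55.9 to below the floor, although the other probe set of Fosl1 had a log2 ratio near 0. Junb was just short of 2-fold at 112 and 56.5, Jun stood at 30.7 and 34.4, and Egr1 was below the floor on both arrays. Gadd45a, a stress gene of the same list, was the higher member at 28.8 and 84.5, 2.93-fold higher. Tpm4, an actin-binding tropomyosin, was 2.77-fold lower at 207 and 74.9.

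**Figure D3:**
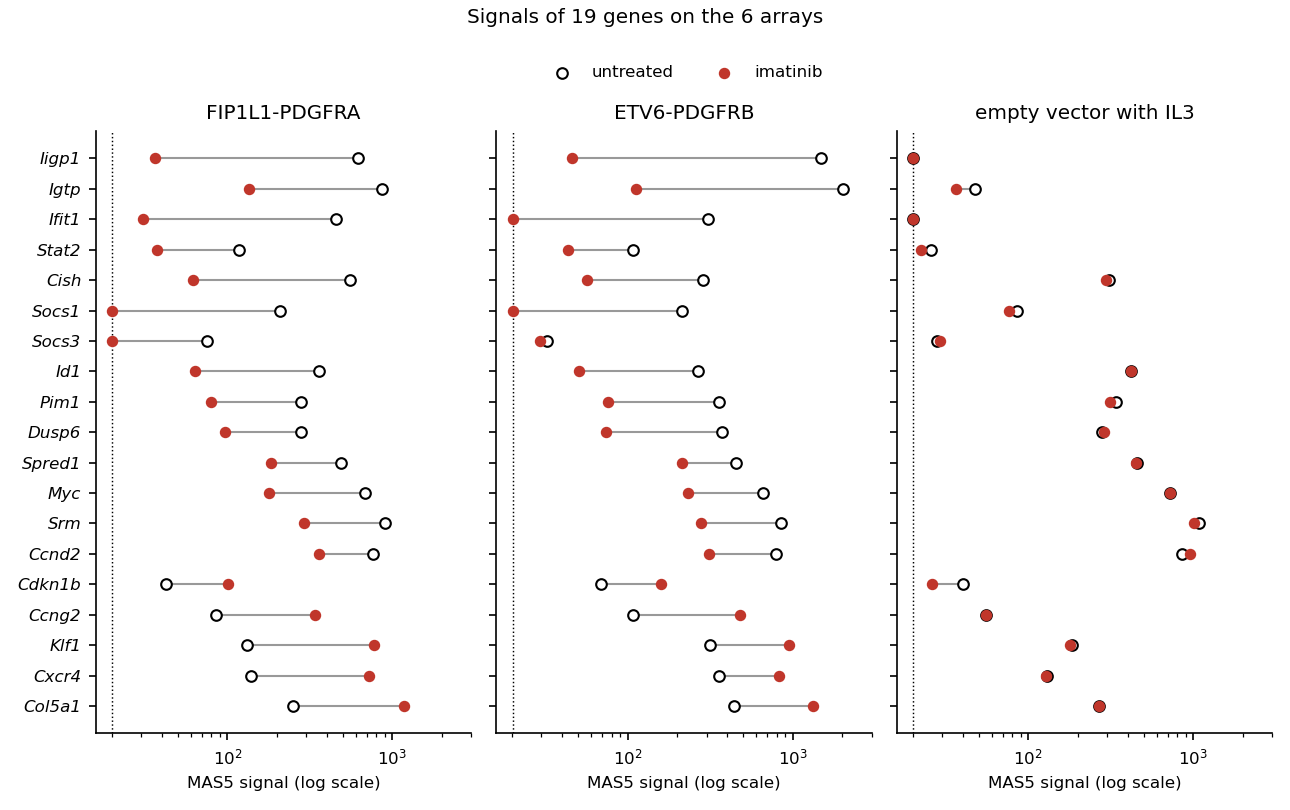
MAS5 signals (x axes, log scale) of 19 genes untreated (open circles) and with imatinib (red) in the 3 cell lines, 1 array per point, with signals under the floor of 20.1 (dotted line) drawn at it. In FIP1L1-PDGFRA cells the upper 14 genes lie to the left after imatinib and the lower 5 to the right, and in cells with IL3 most pairs of points lie on each other.

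Myc and 15 of 81 measured genes of ribosome assembly were at least 2-fold lower. Myc, a transcription factor of cell growth, stood at 681 untreated and 179.8 with imatinib, 3.79-fold lower, and its partner Max at 324 and 201. The antagonists Mxd4 and Mxd3, which compete with MYC for MAX, were 2.92-fold and 2.50-fold higher, at 44.7 and 131 and at 24.6 and 61.5. Of the 81 nucleolar ribosome biogenesis genes, 77 had log2 ratios under 0, and past 2-fold 15 were lower and 0 higher, with a median of -0.65. Rrp1b, an rRNA processing factor, had 264 and 78.4 (3.38-fold lower), Wdr43 447 and 156, Ppan 212 and 75.3, and Rrs1 432 and 162. The abundant nucleolar proteins were nearer to 0, with log2 ratios of -0.16 for Ncl, -0.29 for Fbl and 0.20 for Npm1. Polr1b, a core subunit of RNA polymerase I, was 2.83-fold lower at 135 and 47.9, the only one of 24 measured RNA polymerase I and III genes past 2-fold. That holds for the chosen probe sets: Polr3d and Polr1e had log2 ratios of -0.93 and -0.70 there, and -1.41 and -1.09 at another probe set. Maf1, the repressor of RNA polymerase III, had 325 and 585, 1.80-fold higher.

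Proteins of the finished ribosome formed a separate list. Of 41 cytosolic ribosomal protein genes 0 passed 2-fold in either direction and 39 had log2 ratios above 0, with a median of 0.18, which turned negative (to -0.09) with scaling to the hybridization controls. Rpl12 was the lowest at 84.3 and 51.7. Translation factors had 2 higher and 2 lower of 42, 4.76% each way, against 2.19% and 2.97% of all measured genes, so the count is no result about the list. Eef1e1, a scaffold of tRNA synthetases, was 2.61-fold lower and Eif1a, an initiation factor, 2.38-fold lower. Eef2k, the kinase that halts elongation, was 3.05-fold higher at 24.7 and 75.4, and Pdcd4, an inhibitor of the helicase eIF4A, 2.16-fold higher at 145 and 313. The cap-binding factor Eif4e stood at 1208 and 777. The tRNA synthetases had a median log2 ratio of -0.23 with 0 of 27 past 2-fold, and Tars, the lowest, was at 448 and 260.4.

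Of 9 measured polyamine genes 2 were lower and 0 higher. Srm, which makes spermidine, had 903 untreated and 293 with imatinib, 3.08-fold lower, and Mtap, which salvages its by-product, 1272 and 449, 2.83-fold lower with log2 ratios of other probe sets at -1.44 to -1.13. Odc1, the entry enzyme of polyamine synthesis, was at 877 and 561. Of 30 glycolysis and hypoxia genes 4 were lower and 0 higher. Hk2, hexokinase 2, was 2.57-fold lower, and the glucose transporters Slc2a3 and Slc2a1 stood at 1080.1 and 158 before and 462 and 74.6 after. The list's median log2 ratio was -0.08, with 19 members below 0 and 11 above. Nucleotide synthesis genes had 2 higher and 1 lower of 31, 6.45% and 3.23%, against 2.19% and 2.97% of all measured genes. So few genes are no result about the list. Ampd3, an AMP deaminase, was at least 3.72-fold higher and Tk1, thymidine kinase, 2.31-fold higher at 191 and 440.4, while the lower one was Samhd1. Atf4, a factor of the amino acid response, had 744 and 453, and none of the 26 measured genes of its list passed 2-fold. Within that list Mthfd2, Shmt1 and Trib3 were 1.68-fold, 1.78-fold and 1.76-fold lower. Ddit3 and Ddit4, stress genes, were 1.99-fold and 1.75-fold higher. The other probe sets of Trib3 and Atf4 gave log2 ratios of -1.35 and -0.96, that of Trib3 past 2-fold. Acacb, an acetyl-CoA carboxylase, was 2.13-fold lower, alone among 38 sterol and fatty acid genes. Oxidative phosphorylation genes had a median log2 ratio of 0.17 with 75 of 83 above 0 and 0 past 2-fold, a median that became -0.10 with the hybridization controls. Mitochondrial import genes Timm8a1 and Timm9 were 1.89-fold and 1.88-fold lower within a list whose median was near 0.

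Proliferation genes mostly had log2 ratios above 0 and stayed under 2-fold. Of 56 DNA replication and E2F genes 48 had log2 ratios above 0 and 6 were at least 2-fold higher with 0 lower, and the median was 0.49. E2f8, a repressor of the E2F family, had signals of 75.6 and 188 (2.48-fold higher), and E2f1 27.3 and 67.3, with a log2 ratio of 0.04 at another probe set. Cdc6, which loads the replicative helicase, stood at 75.9 and 163, and Melk, a mitotic kinase, at 42.0 and 124. G2/M and spindle genes had 59 of 62 log2 ratios above 0 and a median of 0.45, with 0 past 2-fold. Cenpk, a kinetochore subunit, and Mki67, the proliferation antigen, were 1.92-fold and 1.78-fold higher, and Kif18a, a spindle motor, 1.85-fold. Both medians remained above 0 in all settings tried, at 0.22 and 0.18 or more.

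Cell cycle brakes were found on both sides of the limit. Cdkn1b, the CDK inhibitor p27, had 42.6 untreated and 101 with imatinib, 2.37-fold higher, and Cdkn1a, the inhibitor p21, 908 and 444, 2.04-fold lower. Rbl2, the pocket protein p130 of resting cells, was 2.34-fold higher at 64.4 and 151, with a log2 ratio of 1.11 at its other probe set. Ccng2, a FOXO target and cyclin of resting cells, had 85.4 and 339 (3.98-fold higher, log2 ratio of the other probe set 1.89). The list of FOXO factors and genes repressed by PI3K held 3 higher and 1 lower of 32. These are 9.4% and 3.1%, against 2.19% and 2.97% of all measured genes, and rest on few genes. The list's median log2 ratio of 0.23 turned to -0.04 with the hybridization controls. Trp53inp1, an autophagy regulator, stood at 60.2 and 156, and Ulk1, the kinase that starts autophagy, went from below the floor to 50.6. Pik3cd, the PI3K subunit of leukocytes, was the lower member at 239.7 and 81.4, 2.94-fold lower, and its other probe sets gave log2 ratios of -2.07 to -1.43. Foxo1, Irs2, Klf2 and Il7r, well known FOXO genes, were below the floor on both arrays.

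Death genes did not pass 2-fold at 4 h. None of 24 measured BCL2 family and caspase genes did at the chosen probe sets, in either direction, and 13 had log2 ratios above 0 and 11 below. The antiapoptotic Mcl1 and Bcl2l1 had log2 ratios of -0.58 and -0.20. Other probe sets ranged from -0.93 to -0.48 for Mcl1 and from -1.17, past 2-fold, to -0.45 for Bcl2l1. Bbc3, which encodes PUMA, came nearest at 60.3 and 115, 1.90-fold higher. Bcl2l11, which encodes BIM, had 301 and 336, and log2 ratios of its 4 other probe sets ranged from -0.48 to 0.26. Bad and Bcl2l2 were 1.49-fold and 1.51-fold higher. Repair genes Ddb2, Chek2 and Brca2 were the 3 higher members of 57, at 2.67-fold, 2.19-fold and 2.11-fold. They are 5.26% of that list, against 2.19% of all measured genes, so the count is no result about the list.

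**Figure D4:**
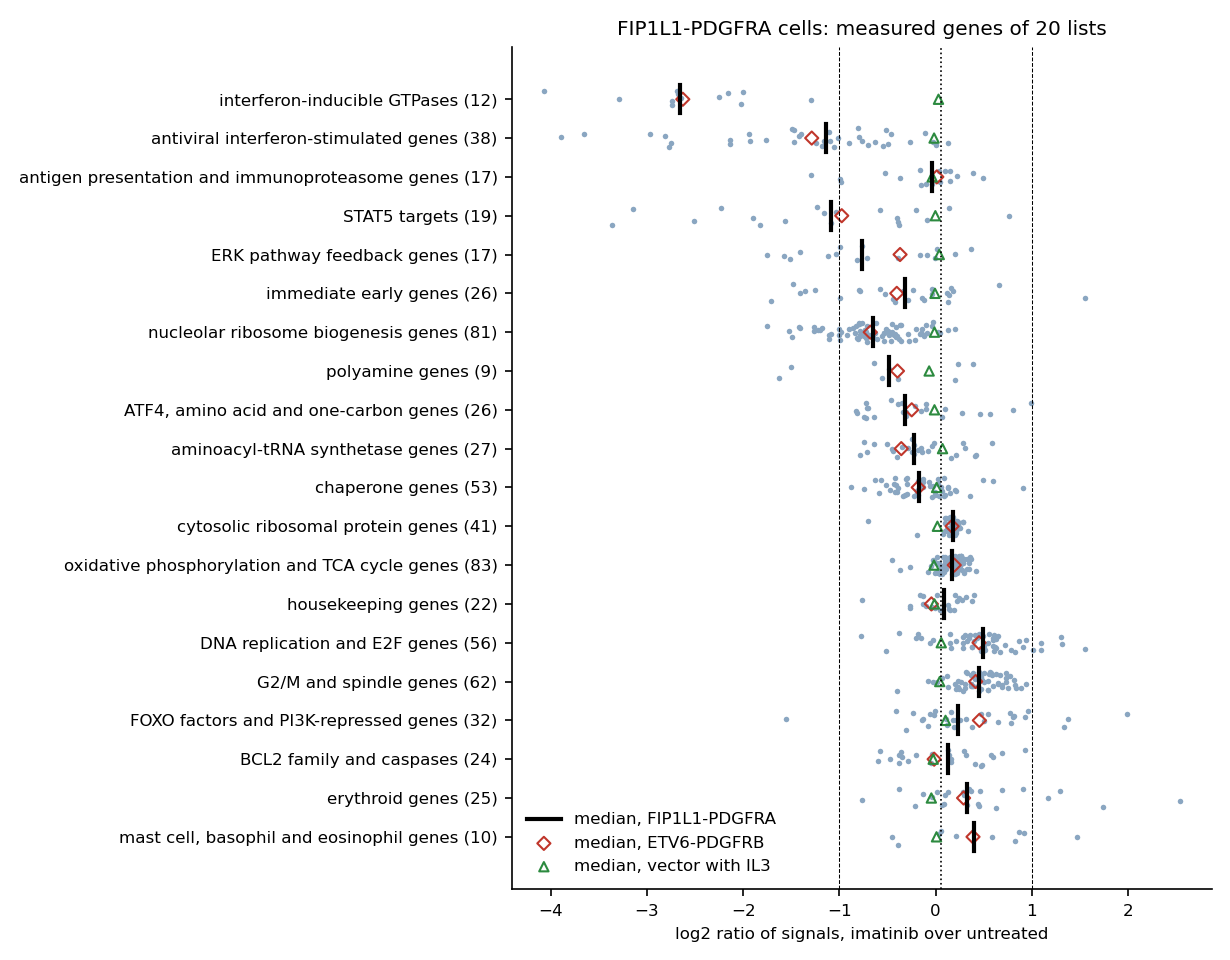
Log2 ratio of imatinib over untreated in FIP1L1-PDGFRA cells (x axis) for the measured genes (points) of each list (y axis, number of genes in brackets), with the list's median (bar) and its medians in ETV6-PDGFRB cells (diamonds) and in vector cells with IL3 (triangles); dashed lines mark 2-fold and the dotted line the median of all measured genes, 0.05. The interferon-inducible GTPases lie lowest with a median of -2.66, and the medians of the antigen presentation, ribosomal protein, oxidative phosphorylation, housekeeping, FOXO and BCL2 lists change sign in at least 1 of the settings tried.

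The highest genes of the comparison were not those of the proliferation lists. Klf1, the master activator of globin and other red cell genes, headed them at 132 untreated and 770.0 with imatinib, 5.82-fold higher. Gata1, its upstream factor, had 323 and 725 (2.24-fold higher), Hemgn 24.7 and 82.6 (3.34-fold higher) and Epor, the erythropoietin receptor, 30.2 and 73.8 (2.45-fold higher). Nfe2 stood at 531 and 996. Klf1, Gata1, Hemgn and Epor were the 4 higher members of 25 measured erythroid genes, with 0 lower and a median log2 ratio of 0.32. Summed over all 35 erythroid genes of the array, the signals were 5214 and 7315. On both arrays 10 of the 35 erythroid genes of the array were below the floor. Tfrc, the transferrin receptor, was the lowest of the list at 919 and 542. Its 2 other probe sets passed 2-fold lower, at log2 ratios of -1.25 and -1.18, so the count of 0 lower holds for the chosen probe sets. Of the mast cell and granulocyte genes, Cma1, a mast cell chymase, was 2.76-fold higher at 113 and 313, while Cpa3 and Gata2 were 1.77-fold and 1.83-fold higher. The other probe set of Gata2 gave a log2 ratio of 0.31. The mast cell and granulocyte list had 10 measured genes and 17 others below the floor on both arrays, Kit and Ms4a2 among them. Summed over all 27 of its genes on the array, the signals were 6171 and 6761.

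Surface and matrix genes had 6 higher and 1 lower of 40 measured, 15% and 2.5%, against 2.19% and 2.97% of all measured genes. Cxcr4, the receptor of the chemokine CXCL12, had 138 and 725, 5.25-fold higher. Col5a1, a fibrillar collagen chain, had 252 and 1173, 4.66-fold higher, and its other probe sets gave log2 ratios of 1.63 and 2.10. Plxdc1 was 4.37-fold higher, and P2rx4, an ATP-gated channel, 2.91-fold higher at 102 and 297. Tnfaip2, a TNF-induced gene, stood at 35.6 and 200.1 (5.63-fold higher), the one higher member of 18 measured NF-kappaB factors and targets, of which 2 were lower. Those counts, 5.56% and 11.1%, are too few genes for a result about that list. Nr3c1, the glucocorticoid receptor, had 71.6 and 217, and Lmo4, a LIM-only cofactor, 93.9 and 336. The log2 ratio of Nr3c1 was 1.60, and it ran from 0.72, under 2-fold, to 1.62 over the settings tried. Enzymes among the 15 highest were Idh1, a cytosolic isocitrate dehydrogenase, at 47.3 and 164, and Fut7, which makes selectin ligands, at 28.9 and 101. Abcb10, a mitochondrial transporter needed for haem synthesis, was 3.06-fold higher, and Mettl7a1, a methyltransferase-like gene, 4.63-fold higher. Bbip1, Ripor1, Ypel3 and Pdzk1ip1 completed the 15, between 2.95-fold and 3.67-fold higher. Of the 148 higher genes 106 stood in none of the 51 lists, against 100 of the 200 lower ones. Most genes stand in no list: of the 12393 genes on the array, 1920 stood in 1 or more. The share among measured genes was not counted, so the count for the higher genes is no result about them.

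The labelled cell type was only partly visible. Of 24 pro-B and B cell marker genes on the array 18 were below the floor on both arrays, among them Pax5, Ebf1, Vpreb1, Igll1, Rag1 and Rag2. Cd79a stood at 42.8 and 63.0, Cd79b at 45.7 and 78.4, and the kinase Btk at 446 and 256. T and NK markers were below the floor in 16 of 18, myeloid markers in 17 of 26, and fibroblast and endothelial markers in 14 of 17. Neither Pdgfra nor Pdgfrb nor Kit, as probed by the mouse array, exceeded the floor. The labels do not state the species of the fusion's coding sequence, so these probe sets check no label. Fip1l1 was at 123 and 127. Of the drug's other targets, Abl1 stood at 66.3 and 76.6, and Nqo2, a quinone reductase that imatinib also binds, was 1.78-fold higher.

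Most of the lower genes were lower in ETV6-PDGFRB cells as well. The pairs of arrays share no array. Of the 200 lower genes 197 were measured there, 126 passed 2-fold in the same direction and 68 had the same sign with a ratio under 2-fold. Of the 148 higher genes, all measured there, 50 passed 2-fold and 97 had the same sign. The median log2 ratio of the higher genes was 1.20 in FIP1L1-PDGFRA and 0.83 in ETV6-PDGFRB cells, and that of the lower genes -1.36 and -1.19. These genes were chosen for their ratio in the first line, so these medians are no test of a weaker response in the other. The background in that line was 1.61% higher and 2.86% lower of 6852 measured genes, 4.47% in either direction. In cells with IL3 the shares were 0.0749% and 0.0599% of 6674. There, 0 of the 143 measured higher genes and 0 of the 171 measured lower genes passed 2-fold in the same direction, and 1, Rab15, passed it in the opposite one. The median log2 ratios of the lists in ETV6-PDGFRB cells were -2.63 for the interferon-inducible GTPases, -1.29 for the antiviral genes, -0.98 for the STAT5 targets, -0.37 for the ERK feedback genes, -0.68 for the nucleolar genes, 0.45 for the replication genes and 0.29 for the erythroid genes. With IL3 the same 7 lists had medians between -0.04 and 0.06. Those of the GTPase and antiviral lists there rest on 4 and 24 genes, against 12 and 38 measured in FIP1L1-PDGFRA cells.

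A few genes whose signals exceeded the floor on each of the 4 arrays of fusion cells had unlike ratios in the fusion lines, and no test of the difference was possible. Ifit2 had 216 and 49.1 here and 104 and 84.2 in ETV6-PDGFRB cells, although the other IFIT genes were low after imatinib in both. Igtp was reduced from a higher level there, 2015 to 112. Id2 had 129 and 54.8 here and 62.6 and 72.3 there. Socs3, which falls outside that choice because of its floored signal, stood at 32.6 and 29.3 there, near its levels of 28.2 and 29.2 in cells with IL3. Untreated Socs3 was therefore highest on the FIP1L1-PDGFRA array. Tcl1b3, of the TCL1 oncogene family, had 143 and 214 here against 464 and 159.6, and Cerk, ceramide kinase, was 2.38-fold higher here, with 31.9 and 24.4 there. Mrpl33, Clec2d, Ccdc93, Strada and Sbf2 completed the 10, with signs that differed between the lines in each. Sbf2 also differed between the arrays with IL3, at 49.7 and 20.2, so its signal varied where no fusion was present.

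The untreated level of some genes also set the lines apart from cells with IL3. Gbp2b was at 832 here, 2078 in ETV6-PDGFRB cells and below the floor with IL3, and Ifit1, Usp18, Rtp4, Irgm2 and Cxcl10 were likewise below the floor on both arrays with IL3. Cish, by contrast, stood at 309 and 297 with IL3, Id1 at 418 and 418, Dusp6 at 281 and 289, and Srm at 1078 and 1004. These 6 interferon genes therefore have no ratio in cells with IL3. Of the others, 4 GTPase genes and 24 antiviral genes were measured there, 0 of them past 2-fold. Irgm1 stood at 57.9 and 58.4, Igtp at 47.8 and 36.4, and Ifit2 at 29.3 and 26.7. Klf1, Cxcr4 and Col5a1 had 185 and 179.5, 129.7 and 129, and 269 and 268 with IL3.

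**Figure D5:**
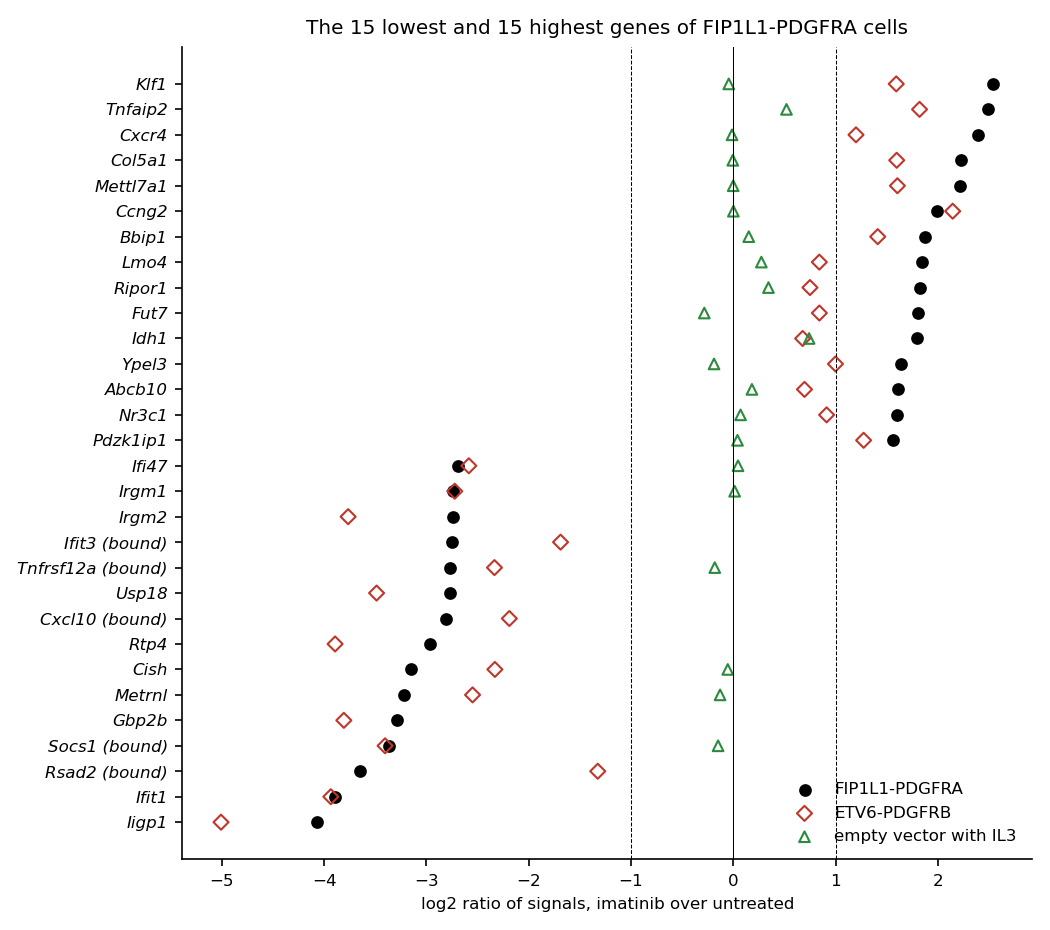
Log2 ratio of imatinib over untreated (x axis) for the 15 lowest and 15 highest genes (y axis) with a signal of at least 100 on 1 of the FIP1L1-PDGFRA arrays, in FIP1L1-PDGFRA cells (black), ETV6-PDGFRB cells (diamonds) and vector cells with IL3 (triangles, left out where both arrays were below the floor); bound marks a FIP1L1-PDGFRA ratio with an array below the floor. The genes were chosen for their black values, and all their triangles lie within 2-fold.

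The spread of ratios gives a scale for single genes. Over all measured genes the SD of log2 ratios was 0.51 in FIP1L1-PDGFRA cells and 0.19 in cells with IL3. With genes in 4 equal bins by mean signal, the IL3 SD was 0.28 in the dimmest bin and 0.0975 in the brightest, so a 2-fold difference is less firm for dim genes. All 9 genes past 2-fold with IL3 lay in the 2 dimmer bins, 7 in the dimmest and 2 in the next. In the FIP1L1-PDGFRA pair 63 higher and 43 lower genes came from the dimmest bin. The 5 higher and 29 lower genes not measured in cells with IL3, Iigp1 and Ifit1 among them, are in no bin. A second look at the same RNA comes from other probe sets of a gene, which check the probe and not the culture. Of 53 higher genes with another measured probe set, all 53 had a median of the same sign and 19 passed 2-fold (35.8%). Of 77 such lower genes 75 had the same sign and 49 passed 2-fold (63.6%), and the exceptions were Fubp1 and Trim26, named after their values were seen. The genes nearest the limit show how narrow it is: Cyth2 and Asb11 were just inside it at 2.01-fold and 2.01-fold higher, Ddit3 and Mrtfa just outside, Rpf2 and Rab15 just inside on the lower side, and Erap1 and Usp25 just outside.

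All 6 arrays had the same trimmed mean signal, 100.0, and 49.8% to 50.6% of their probe sets above the floor. For actin, the 3' over the 5' signal was 1.12 untreated and 1.22 with imatinib. Log2 signals of the pair correlated at 0.952 over genes, against 0.993 for the pair with IL3. The labels do not say whether the cells of each array came from separate cultures. Of 22 housekeeping genes 0 passed 2-fold at the chosen probe sets, with log2 ratios from -0.76 for Tfrc to 0.40 for Tubb5. The 2 other probe sets of Tfrc did pass it, at -1.25 and -1.18. Actb was at 0.01, with 0.54 at its other probe set, Tbp at 0.04 and Hprt at -0.04.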

How the data were processed

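RNA of Ba/F3 cells was hybridised to 6 Affymetrix mouse arrays, 1 for each group of cell line and treatment. The deposited values are MAS5 intensity signals on a linear scale, made by the authors with GCOS 1.4.0, per the submitters' processing notes. Background settings and detection calls are not given in the sources used here. Of 22690 probe sets, 20393 had 1 gene symbol in the platform annotation, 691 had several and 1606 had none, and no symbol differed in the RefSeq gene table of GRCm38.p6. For each of 12393 genes the probe set brightest on average (mean log2 signal, all arrays) was used. Signals under 20.1 were set to that floor, and log2 ratios were taken where at least 1 array exceeded it (Python 3.11.15, numpy 2.4.6, pandas 2.3.3, matplotlib 3.10.9). The calculation was tested on simulated signals. Genes were counted past 2-fold with no test.

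The genes named are the 15 highest and 15 lowest with a signal of at least 100, the 4 farthest from 0 of each of 51 gene lists with a few fixed members, the 10 most unlike the ETV6-PDGFRB pair, the 2 nearest to 2-fold on each side and direction, and those past 2-fold in the IL3 pair too. The comparison, the lists and the motifs were chosen with earlier results of these data known. Promoter windows and coordinates come from RefSeq's annotation of GRCm38.p6, and windows chosen for the E-box and the FOXO site are not printed. Other floors, a pseudocount of 16, other scalings, other rules for probe sets and other fold limits were tried as alternatives. With 1 array per group their number limits the precision of every value.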

Additional observations from a re-analysis of the deposited data

Results flagged for a closer look

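Probe sets with no single gene symbol were left out of all counts, and 45 of the 928 measured ones differed by at least 2-fold in the FIP1L1-PDGFRA pair, 12 higher and 33 lower. In the ETV6-PDGFRB pair 40 did, and in the pair with IL3 there was 1. Zap70, a kinase of the T cell receptor, had a log2 ratio of -1.28 in the FIP1L1-PDGFRA pair, where its treated signal was below the floor, and of 1.80 in the ETV6-PDGFRB pair, from 25.1 to 87.8. The difference between the lines was not tested. Rab15, a small GTPase, had a log2 ratio of -1.005 with a treated signal below the floor, and of 1.05 in the pair with IL3, where the untreated signal was below it. This difference was not tested either.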

How the results depend on the processing

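Of 117 named genes past 2-fold, 74 passed it in every setting that gave a value and 0 had another sign. A floor at the 60th percentile left 89 higher and 155 lower genes, and a pseudocount of 16 with no floor 72 and 152. With the hybridization controls as the scale, 58 genes were higher and 392 lower, past 2-fold. Limits of 1.5-fold and 3-fold gave 609 and 21 higher and 606 and 61 lower genes. A floor at the 40th percentile gave 201 higher and 244 lower genes, and all the other settings gave between 124 and 160 higher and 192 and 225 lower ones. Scaling to the hybridization controls moved all 50 list medians compared by more than the spread of the IL3 pair. The cause was not tested. No paired analysis was possible because the groups compared hold 1 array each and form 1 pair; a fit over several lines, which asks about all of them, was not run. Signals near the floor limit the dim genes, whose folds are bounds where 1 array lies below it.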
